A study of Homo sapiens with 3 samples.

Results

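The genes described here mostly encode the glutathione, thioredoxin and NRF2 antioxidant system of AB12, a mouse malignant mesothelioma cell line. They were chosen by gene symbol, with earlier results of these data known. The list held glutathione transferases, glutathione peroxidases other than Gpx4, peroxiredoxins and superoxide dismutases. It also held genes whose symbol starts with Txn and a fixed set of enzymes and regulators of the NRF2 pathway. Matching by symbol also brought in Txnl4a and Txnl4b, which belong to the splicing machinery, and a pseudogene. These are counted among the antioxidant genes below. Of 60 matching genes, 59 reached the required mean of 10 scaled counts over the libraries, out of 12813 genes tested and 13936 in the table. The extracellular peroxidase gene Gpx3, with a mean of 7.30, fell just outside this limit, and the thioredoxin pseudogene Txn-ps1 (13.2) and the transferase gene Gsta2 (20.6) lay just inside it. RNA came from 1 library labelled shSC, whose source is named AB12WT, and 2 labelled shNF2, whose sources are named AB12KD; by their numbers these are library 20 and library 21. All were AB12 cells grown in RPMI with 10% serum. The labels give no time, dose or clone and do not say what the numbers stand for. They also do not say that the libraries came from separate cultures. A p-value here rests on the spread between libraries 20 and 21, moderated over all genes, and that spread may be technical. The single shSC library adds nothing to it. Gene identifiers in the table are those of mouse, although the organism is labelled as human.

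Glutathione is a small thiol made from glutamate, cysteine and glycine; peroxidases and transferases spend it to remove peroxides and electrophiles, and glutathione reductase restores it with NADPH. Thioredoxin and its reductases form a parallel thiol system that serves the peroxiredoxins, the most abundant peroxide scavengers of many cells. The transcription factor NRF2 raises many genes of both systems when its inhibitor KEAP1 is modified by electrophiles or occupied by the adaptor p62.

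Reads assigned to genes ranged from 25837151 to 29532600 per library. Values are scaled counts, that is, read counts divided by 1 factor per library, and they depend on transcript length, so levels are compared between libraries and not between genes. The target of the hairpin, Nf2, had 1539 scaled counts in shSC against 486 and 458 in libraries 20 and 21 (log2 fold change -1.70; limma adjusted p = 0.00555). Of 11 mesothelial markers 6 had values, with a summed level of 44003 in shSC and 40068 and 33987 in libraries 20 and 21. That sum is mostly Krt18, Krt8 and Krt19, which were below shSC in both shNF2 libraries; Msln (7397, 9722 and 8977 scaled counts), Krt7 and Cdh2 were above it, and Krt7 was the only marker called (49.7, 290 and 183; limma adjusted p = 0.0119). The markers Wt1, Upk3b, Pdpn, Calb2 and Lrrn4 were not among the genes with values here. Of 11 macrophage markers 4 had values (Mrc1, Cd14, Cd68 and Lyz2), without Ptprc, Adgre1 or Csf1r. Their summed level was 9307 in shSC and 8559 and 8070 in libraries 20 and 21, mostly Mrc1 and Cd14. Cd14 (3222, 2576 and 1659 scaled counts) was below shSC in both shNF2 libraries, and Lyz2 (56.5, 260 and 108) was above it. Mrc1 (5940, 5617 and 6215) and Cd68 (88.6, 105 and 87.5) were divided, and no macrophage marker was called. Of 9 fibroblast markers 3 had values (summed level 14.6 in shSC, 22.0 and 90.4), and no endothelial or lymphocyte marker had one. The fibroblast sum in library 21 is mostly Acta2, with 0.97 scaled counts in shSC against 1.05 and 69.0 in libraries 20 and 21. Col3a1 (3.89, 9.41 and 6.80) and Pdgfra (9.74, 11.5 and 14.6) were low in all libraries. The part of these marker levels in the results was not tested.

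No antioxidant gene passed the test of shNF2 against shSC. These are bulk libraries, in which a smaller number of expressing cells and less RNA per cell cannot be told apart. By limma on log2(scaled count + 1), with Benjamini-Hochberg adjustment over all genes tested and a threshold of 0.05, 0 of 59 were called higher and 0 lower, where the shares over all genes tested were 0.414% and 0.429%. At an unadjusted p under 0.05 there were 4 higher and 3 lower, 6.78% and 5.08% of the 59, beside 4.36% and 4.91% of all genes. edgeR called 0 of the 59, where it called 0.226% of all genes higher and 0.406% lower, and had the same 4 and 3 genes at an unadjusted p under 0.05. DESeq2 called 0, where it called 0.333% and 0.479% of all genes, and had 2 and 2 at an unadjusted p under 0.05, with 1 gene given no adjusted p. Both shNF2 libraries were above shSC for 21 antioxidant genes and below it for 25, or 35.6% and 42.4%, close to the 36.1% and 35.8% of all genes; the remaining 13 lay on opposite sides. Their median log2 fold change was -0.04 (library 20, 0.02; library 21, -0.07), against -0.00 for all genes. The median standard error of the 59 was 0.23. Both shNF2 libraries are set against the same shSC library, so a shared side is not a replication. The shares of all genes given here, 36.1% above and 35.8% below, apply to the counts by family that follow.

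**Figure D1:**
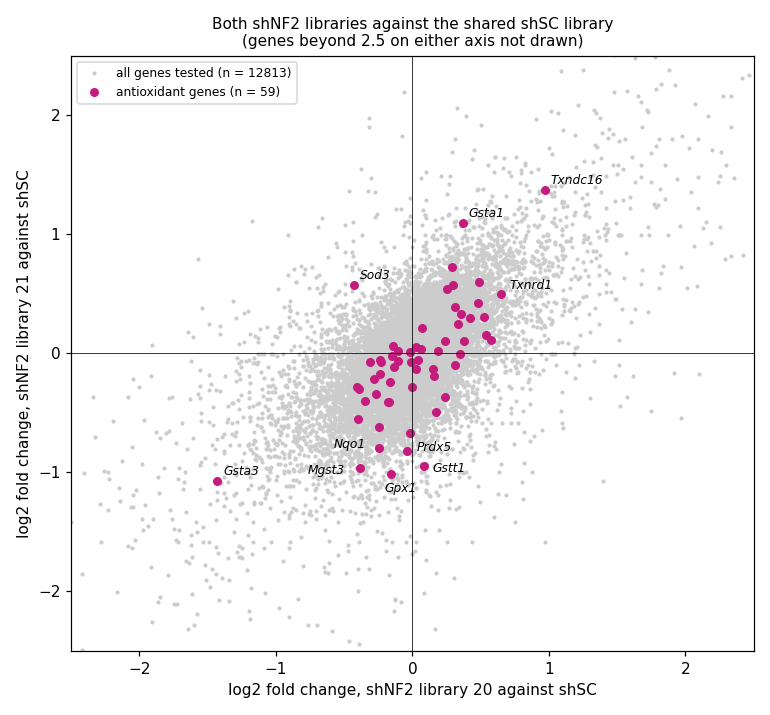
Log2 fold change of library 21 (vertical) against that of library 20 (horizontal), each relative to the single shSC library, for all 12813 genes tested (grey) and the 59 antioxidant genes (pink). Most antioxidant genes lie inside the cloud of all genes; Gsta3 (-1.43, -1.07) and Txndc16 (0.97, 1.37) lie farthest along the diagonal, and Gstt1, Gpx1 and Prdx5 are low along the vertical axis only.

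The controls of the pathway were at nearly the same level in all 3 libraries. Nfe2l2, which encodes NRF2, had 4572 scaled counts in shSC against 4250 and 4641 in libraries 20 and 21, a log2 fold change of -0.04 with a 95% interval of -0.49 to 0.41. Keap1, whose product directs NRF2 to degradation, had 531, 588 and 484 scaled counts (0.01, interval -0.55 to 0.56). Sqstm1, which encodes p62 and is itself an NRF2 target, had 10416, 10692 and 10022 scaled counts (-0.01, interval -0.46 to 0.45). In each of the 3 genes one shNF2 library was above shSC and the other below it. After a correction for transcript length and GC content, Keap1 and Sqstm1 were above shSC in both libraries and Nfe2l2 below it in both. Under quantile normalization Sqstm1 was above shSC in both. These are RNA levels, and NRF2 is controlled mainly through its protein.

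Of the inducible enzymes often read as NRF2 output, Nqo1 and Srxn1 lay on different sides of shSC and neither passed the test. Nqo1, a quinone reductase, was low, with 49.7 scaled counts in shSC against 41.8 and 28.2 in libraries 20 and 21 (51, 40 and 29 reads). Both shNF2 libraries were below shSC, with a log2 fold change of -0.52 and a wide 95% interval of -1.54 to 0.50. Srxn1, which encodes sulfiredoxin, the enzyme that repairs overoxidised peroxiredoxins, had 2327, 2750 and 2504 scaled counts (0.17, interval -0.28 to 0.63).

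Of 4 glutathione synthesis and recycling genes, 3 were slightly above shSC in both shNF2 libraries and 0 passed the test. Gclc, the catalytic subunit of the rate-limiting glutamate-cysteine ligase, had 1727 scaled counts in shSC against 2319 and 2122 in libraries 20 and 21 (log2 fold change 0.36, 95% interval -0.10 to 0.82; limma adjusted p = 0.673). Its modifier subunit Gclm had 1643, 2075 and 1943 scaled counts (0.29, interval -0.17 to 0.75). Gsr, glutathione reductase, had 1831, 2272 and 2399 scaled counts (0.35, interval -0.11 to 0.81). Gss, glutathione synthetase, which catalyses the second step, stayed between 1235 and 1260 scaled counts in all 3 libraries (-0.00, interval -0.48 to 0.47). Gclc, Gclm and Gsr stayed above shSC in both shNF2 libraries after a correction for transcript length and GC content. In library 21 the log2 fold change then went from 0.30 to 0.11 for Gclc, 0.24 to 0.007 for Gclm and 0.39 to 0.48 for Gsr.

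Genes of NADPH supply differed little from shSC. G6pdx, which opens the pentose phosphate pathway, had 1764 scaled counts in shSC against 2007 and 1786 in libraries 20 and 21 (log2 fold change 0.10). Pgd, the next NADPH-forming enzyme of that pathway, had 4718, 6024 and 4708 scaled counts (0.17), so that only library 20 was above shSC. Me1, cytosolic malic enzyme, had 2343, 2002 and 2229 scaled counts (-0.15).

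**Figure D2:**
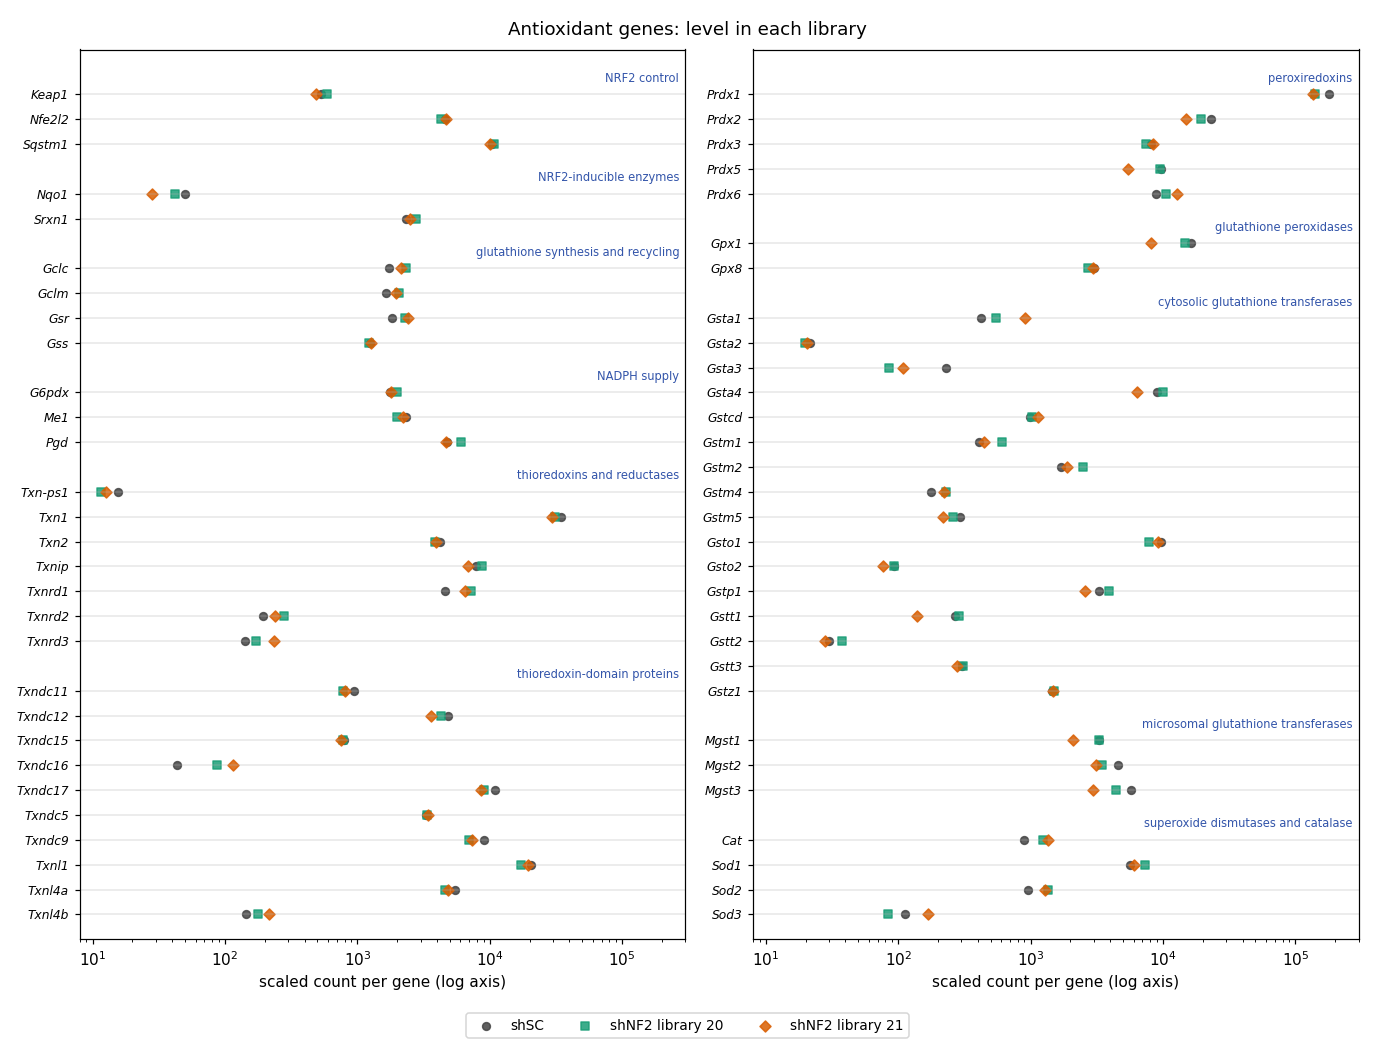
Scaled count of each antioxidant gene (log axis) in shSC (grey circles), library 20 (green squares) and library 21 (orange diamonds), arranged by role. The 3 values of most genes nearly coincide; Gsta3 and Txndc16 show the widest gaps between shSC and both shNF2 libraries.

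All 3 thioredoxin reductase genes were above shSC in both shNF2 libraries, whereas the thioredoxins they serve were slightly below it, except Txn1 under quantile normalization and Txn2 after a correction for transcript length and GC content. Txnrd1, the cytosolic reductase, had 4599 scaled counts in shSC against 7230 and 6506 in libraries 20 and 21. The shNF2 values were 1.57 and 1.41 times that of shSC, a log2 fold change of 0.58 ± 0.21 (SE, 2 libraries against 1; 95% interval 0.12 to 1.03), with a limma adjusted p of 0.357. Txnrd2, the mitochondrial reductase, had 195, 280 and 240 scaled counts (0.41), and Txnrd3, the form abundant in testis, had 141, 173 and 233 (0.50). Neither passed the test.

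Txn1, cytosolic thioredoxin, had 34662 scaled counts in shSC against 30934 and 29350 in libraries 20 and 21 (log2 fold change -0.20, 95% interval -0.70 to 0.29). The mitochondrial form Txn2 had 4230, 3848 and 3896 scaled counts (-0.13). Txnip, an inhibitor of thioredoxin that also restrains glucose uptake, had 7817, 8726 and 6845 scaled counts, so that the shNF2 libraries lay on either side of shSC (-0.02). The processed copy Txn-ps1 had 15.6, 11.5 and 12.6 scaled counts; such copies can share reads with their parent gene, and their values are uncertain.

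Of 10 genes for other thioredoxin-domain proteins, 7 were below shSC in both shNF2 libraries and 3 above, with a median log2 fold change of -0.18 and none passing the test. Txndc16, which encodes a luminal protein of the endoplasmic reticulum, was the gene farthest above shSC: 43.8 scaled counts in shSC against 86.8 and 115 in libraries 20 and 21. Its log2 fold change was 1.17 ± 0.39 (SE, 2 libraries against 1; 95% interval 0.32 to 2.01), with an adjusted p of 0.293 in limma and 0.914 in DESeq2. The reads behind it numbered 45, 83 and 118. The other 9 had log2 fold changes between -0.35 (Txndc9, 9129, 6966 and 7394 scaled counts) and 0.44 (Txnl4b, 145, 179 and 217 scaled counts). Txnl4a and Txnl4b, despite their names, belong to the splicing machinery.

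Peroxiredoxins split by member, and Prdx4 was not among the genes with values here. Prdx1, the main cytosolic peroxiredoxin, had 178880 scaled counts in shSC against 140869 and 135822 in libraries 20 and 21, and alone took 0.622% of the reads in genes in shSC (exact 95% binomial interval 0.619% to 0.625%), 0.521% (0.518% to 0.524%) in library 20 and 0.521% (0.518% to 0.524%) in library 21. These intervals cover counting error only. By scaled count, libraries 20 and 21 had 0.788 and 0.759 times the shSC value. The drop is smaller by read share, which is divided by reads in genes and not by the library's factor. The log2 fold change on scaled counts was -0.37 (95% interval -0.97 to 0.23, limma adjusted p = 0.740), and under quantile normalization it was 0.28. Prdx2, its cytosolic relative, had 22925, 19320 and 14888 scaled counts (-0.43, interval -0.94 to 0.07). Prdx6, which works with glutathione in place of thioredoxin, was the only peroxiredoxin above shSC in both shNF2 libraries (joined by Prdx1 under quantile normalization), with 8820, 10517 and 12798 scaled counts (0.40, interval -0.08 to 0.87). Under that normalization the median of the 5 peroxiredoxins changed from -0.37 to 0.06. The mitochondrial Prdx3 had 8148, 7399 and 8485 scaled counts (-0.04).

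Prdx5 and Gpx1 were low in library 21 only. Prdx5, a peroxiredoxin of mitochondria, peroxisomes and cytosol, had 9677 scaled counts in shSC against 9425 and 5466 in libraries 20 and 21. Gpx1, the ubiquitous selenium-dependent glutathione peroxidase, had 16334, 14654 and 8080 scaled counts. Library 20 was close to shSC for both, while library 21 had 0.565 and 0.495 times the shSC value of Prdx5 and Gpx1. Their log2 fold changes over both libraries were -0.43 (95% interval -1.04 to 0.18) and -0.59 (-1.23 to 0.05). Gpx8, a peroxidase of the endoplasmic reticulum, had 3016, 2716 and 2967 scaled counts (-0.09).

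Among 16 genes for cytosolic glutathione transferases and their relatives, 6 were above shSC in both shNF2 libraries, 5 below and 5 divided, with a median log2 fold change of -0.06. The alpha-class genes held both extremes. Gsta3 had 230 scaled counts in shSC against 84.7 and 109 in libraries 20 and 21, or 236, 81 and 112 reads. It was the only antioxidant gene at least 2-fold below shSC in both shNF2 libraries, where 1.3% of all genes were; none was 2-fold above in both, beside 1.33% of all genes. Its log2 fold change was -1.25 ± 0.34 (SE, 2 libraries against 1; 95% interval -1.99 to -0.51), and its adjusted p was 0.156 with limma, 0.160 with edgeR and 0.492 with DESeq2.

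Gsta1 went the other way, with 425 scaled counts in shSC against 548 and 906 in libraries 20 and 21 (log2 fold change 0.73, 95% interval 0.08 to 1.38; limma adjusted p = 0.444). Gsta4, which conjugates the lipid aldehyde 4-hydroxynonenal, had 8954, 10092 and 6377 scaled counts and lay above shSC in library 20 and below it in library 21 (-0.16). Gsta2 had 21.4, 19.9 and 20.4 scaled counts. Gsta1 and Gsta2 are close copies, as are several mu-class genes, and reads that match more than one copy can be split or lost in counting, so their separate values are uncertain.

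Of the mu class, Gstm1, Gstm2 and Gstm4 were above shSC in both shNF2 libraries and Gstm5 below. Gstm1 had 409 scaled counts in shSC against 609 and 442 in libraries 20 and 21 (log2 fold change 0.34), and Gstm2 had 1699, 2472 and 1889 (0.35). Both stood nearer to shSC in library 21 than in library 20. Gstp1, the pi-class enzyme often abundant in tumours and also a member of a set of close copies, had 3309, 3904 and 2560 scaled counts (-0.07), again with the shNF2 libraries on either side. Gstt1, a theta-class gene, had 271, 287 and 140 scaled counts (-0.43), with library 21 at 0.517 times shSC. The omega-class genes Gsto1 and Gsto2, the theta-class genes Gstt2 and Gstt3, the zeta-class gene Gstz1 and Gstcd had log2 fold changes between -0.19 and 0.14.

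All 3 microsomal glutathione transferases, membrane proteins of the MAPEG superfamily, were below shSC in both shNF2 libraries, also under TMM scaling and quantile normalization. Mgst3 had 5776 scaled counts in shSC, and libraries 20 and 21 had 4422 and 2958 (a log2 fold change -0.68 ± 0.25, SE, 2 libraries against 1; 95% interval -1.21 to -0.14; limma adjusted p = 0.364). Mgst2, which can also conjugate leukotrienes, had 4599, 3494 and 3132 scaled counts (-0.48, interval -0.93 to -0.02; adjusted p = 0.50 in limma). Mgst1 had 3307, 3262 and 2082 scaled counts (-0.34), with library 20 almost at the level of shSC.

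Of 4 superoxide dismutase and catalase genes, 3 were above shSC in both shNF2 libraries and Sod3 was divided, with 0 passing the test. Cat, the peroxisomal enzyme that breaks down hydrogen peroxide, had 891 scaled counts in shSC against 1250 and 1353 in libraries 20 and 21, 1.40 and 1.52 times shSC (log2 fold change 0.55 ± 0.22, SE, 2 libraries against 1; 95% interval 0.06 to 1.03; limma adjusted p = 0.444). Sod2, the mitochondrial dismutase, had 965, 1349 and 1293 scaled counts (0.45, interval -0.03 to 0.93). Sod1, the cytosolic one, had 5600, 7264 and 5997 scaled counts (0.24). Sod3, the secreted one, had 113, 83.7 and 168 scaled counts, with library 20 below shSC and library 21 above it (0.07).

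**Figure D3:**
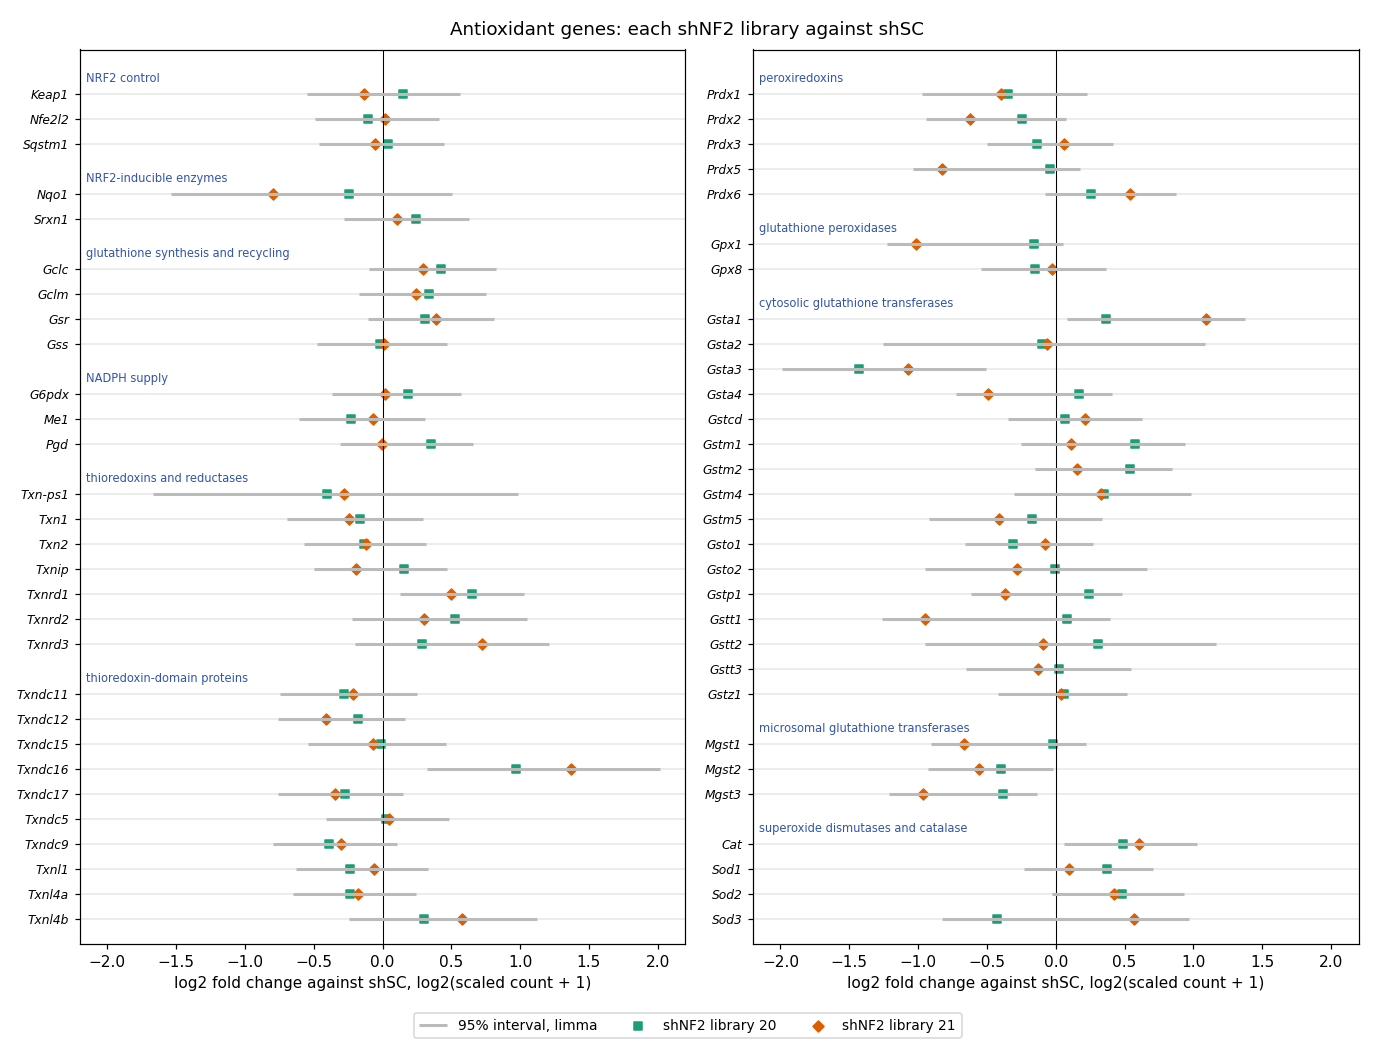
Log2 fold change of library 20 (green squares) and library 21 (orange diamonds) against shSC for each antioxidant gene, on log2(scaled count + 1), with the 95% interval of limma for both libraries together (grey bars), by role. The bars of 7 genes leave out 0 before adjustment: Txnrd1, Txndc16, Gsta1 and Cat on the higher side and Gsta3, Mgst2 and Mgst3 on the lower side.

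The shNF2 libraries differed from each other at some antioxidant genes, at 1.5-fold or more about as often as over all genes. Library 21 was at least 1.5-fold below library 20 at 6 of 59 genes (Gstt1, Gpx1, Prdx5, Gsta4, Mgst1 and Gstp1), beside 7.44% of all genes, and at least 1.5-fold above it at 2 (Sod3 and Gsta1), beside 5.74%. In all, 35 of 59 (59.3%) were lower in library 21, against 49.2% of all genes. The largest differences, library 21 minus library 20 on the log2 scale, were -1.03 for Gstt1, 0.998 for Sod3, -0.86 for Gpx1, -0.79 for Prdx5 and 0.72 for Gsta1. With 1 library of each number there is no test of this difference.

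Base composition moved with it. No mouse annotation was used here, so GC content and length were medians over human protein-coding transcripts. These were matched by the same symbol or a listed synonym and covered 55 of the 59 genes and 10329 of all genes tested. Across genes, which share the same libraries and are not independent, Spearman's rho between GC content and the difference of library 21 from library 20 was -0.355 over the 55 and -0.419 over all genes. Stand-in transcripts of Gpx1, Prdx5 and Gstp1 had 62.6%, 60.7% and 60.8% GC, above the median of 49.8% over all genes, whereas those of Mgst1 and Gsta4 had 38.7% and 44.9%. Sod3, which was higher in library 21, had 65.6%. With length, rho was 0.339 over the 55 and 0.218 over all genes. After each library's trend with GC and length was subtracted, library 21 minus library 20 was -0.58 for Gpx1, -0.53 for Prdx5, -0.36 for Gstp1, -0.75 for Mgst1, -0.71 for Gsta4, 0.66 for Gsta1 and 1.30 for Sod3. Gstt1, with the largest difference, had no stand-in transcript and so no GC or corrected value. The part of GC content in these differences was not otherwise tested.

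**Figure D4:**
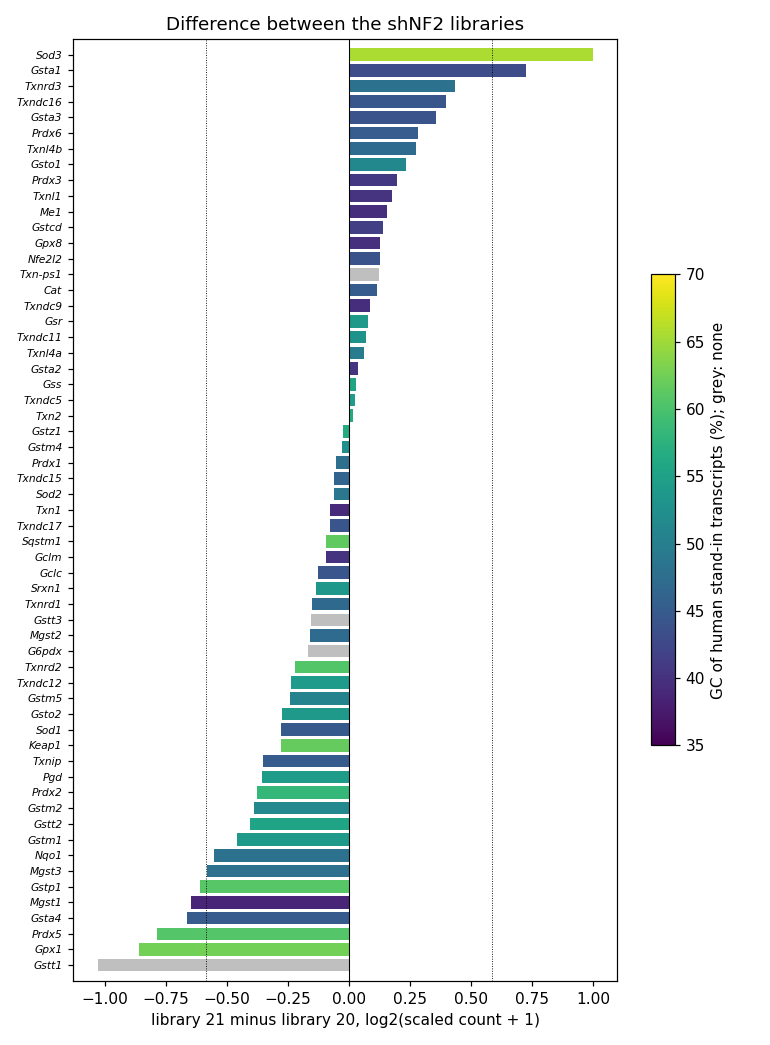
Difference between the shNF2 libraries (library 21 minus library 20, on log2(scaled count + 1)) for each antioxidant gene, coloured by the GC content of human stand-in transcripts; dotted lines mark 1.5-fold. More bars point to lower values in library 21 (35 of 59), and Gstt1, Gpx1 and Prdx5 have the longest of them.

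Other genes of the same pathways gave no call either, where limma called 0.414% of all genes higher and 0.429% lower. With shares this low, lists of this size can have no call without differing from all genes. Among 12 further genes controlling NRF2, 0 passed, with a median log2 fold change of -0.02. Mafg, a small MAF partner of NRF2, had 1028 scaled counts in shSC against 726 and 715 in libraries 20 and 21 (-0.51; limma adjusted p = 0.520), and Btrc, a ubiquitin ligase subunit that can recognise NRF2, had 332, 422 and 399 (0.30).

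Among 35 further NRF2 targets, 0 passed, with a median of 0.07. Abcc4, an efflux pump, had 1405, 2263 and 2365 scaled counts (0.72; limma adjusted p = 0.194). Htatip2 had 58.4, 25.1 and 11.7 scaled counts (-1.71; adjusted p = 0.285 in limma). Hmox1 and Slc7a11, singled out after their values were seen as the haem oxygenase and cystine importer genes widely used to read NRF2 activity, had log2 fold changes of 0.23 and 0.14.

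Among 21 genes of glutathione supply and breakdown, 0 passed, with a median of -0.10. Chac2 and Ggct, both of which act in the breakdown of glutathione, went opposite ways. Chac2 had 2998, 1781 and 1798 scaled counts (log2 fold change -0.74; limma adjusted p = 0.171), and Ggct had 159, 312 and 259 (0.84; adjusted p = 0.342 in limma).

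Among 27 genes for glutaredoxins, sulfoxide reductases, disulfide isomerases and related proteins, 0 passed, with a median of 0.04. Msrb3, a methionine sulfoxide reductase, had 564, 966 and 1305 scaled counts (log2 fold change 0.99; limma adjusted p = 0.116), and passed when no filter on low values was used (adjusted p = 0.0289 in limma). Selk, which encodes a selenoprotein of the endoplasmic reticulum, had 8412, 5966 and 4499 scaled counts (-0.70). Among 18 further genes of NADPH and NAD supply, 0 passed, with a median of 0.04; Nampt had 18887, 12337 and 13793 scaled counts (-0.53) and Mthfd1 had 989, 1411 and 1453 (0.53). Over these 5 lists, of 113 genes there were 5 higher and 7 lower at an unadjusted p under 0.05, where 4.36% and 4.91% of all genes were.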

How the data were processed

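RNA-seq of 3 AB12 libraries was used, 1 shSC and 2 shNF2, grouped by their labels. Tools listed in the submitters' processing notes, without role or order, are DESeq 1.22.1, HTSeq 0.5.3, STAR 2.5.0a and cutadapt 1.6; the build listed there is mm10. The authors deposited 1 table of gene signal, named as scaled counts; per the deposited values, multiplying a column by its library's factor gives whole reads (100% of values within 0.001 reads). Rows naming no gene held 47.7% to 48.7% of reads and were left out. Per the labels' protocols, libraries were polyA-selected and stranded; whether counting used strand is not given in the sources used.

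Genes with a mean of at least 10 were tested with limma 3.58.1 (R 4.3.3), variance trend on, after log2(scaled count + 1). The spread rests on 1 residual degree of freedom, moderated with 11.9 prior degrees, and shSC is assumed to vary like shNF2; 0.333 is the smallest p that an exact test of this design allows. Fold changes on this scale understate low genes. edgeR 4.0.16 and DESeq2 1.42.0 on recovered reads, other pseudocounts, filters, scalings and variance models, and leaving out each shNF2 library were alternatives. A correction for length and GC (mgcv 1.9.3) was added after seeing the data. Intervals of 95% come from limma's moderated standard errors. Scripts were tested on simulated data.

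Members and lists were chosen with earlier results of these data known. Values in each library are given for the 8 members with the largest change shared by both libraries, the 5 that differ most between them, a fixed set and, in other lists, the 2 smallest p. Other members given with a value in each library were chosen after their values were seen, to complete their family.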

Additional observations from a re-analysis of the deposited data

How the results depend on the processing

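No antioxidant gene was called under any alternative that gave a test; the smallest adjusted p among them was 0.0603, without the filter on low values, and elsewhere it was 0.126 or more. Without the filter on low values 110 genes in all were called higher and 122 lower, in place of 53 and 55. Under quantile normalization 0 and 0 genes in all were called (882 at an unadjusted p under 0.05), without a variance trend 0 and 0 (1036), with edgeR 29 higher, and after length and GC correction 25 higher. The median log2 fold change of antioxidant genes ran from -0.0664 without library 20 to 0.0231 without library 21. Nf2 kept its direction but missed the threshold with quantile normalization (log2 fold change -1.72) and without a variance trend (-1.70). Directions changed under TMM for Keap1 (-0.00208), under quantile normalization for Sqstm1 (0.11), Txnip (0.0865) and Prdx1 (0.28), and after length and GC correction for Sqstm1 (0.15), Gss (0.0672) and Gstp1 (0.0652); none of these was called and the cause was not tested. Leaving out 1 shNF2 library leaves no spread, so those values have no test. No paired analysis was possible because shSC shares no replicate number with shNF2.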

Other observations

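The genes Gpx1 and Sepw1, which encode selenium-containing proteins, were both near shSC in library 20 and at about the same fraction of it in library 21. For this reason 18 genes known to encode selenoproteins, without Gpx4, were read together. This set was put together after values had been seen, and no test was made. Sepw1 had 2282 scaled counts in shSC against 1995 and 1047 in libraries 20 and 21, or 0.874 and 0.459 times shSC, beside 0.897 and 0.495 times for Gpx1. Selk stood at 0.709 and 0.535 times, the gene 2700094K13Rik at 0.892 and 0.674, and Sepp1, the secreted carrier of selenium, at 0.807 and 0.694. The reductases Txnrd1, Txnrd2 and Txnrd3, also selenoproteins, stood at 1.41, 1.23 and 1.65 times shSC in library 21, and Sephs2, which makes the selenium donor, at 1.23. Of the 18, 8 were below shSC in both shNF2 libraries and 13 were lower in library 21 than in library 20, where 35.8% and 49.2% of all genes were; these counts include Gpx1 and Sepw1, around which the set was built. The stand-in transcripts of Sepw1 had 58.6% GC, and its log2 fold change in library 21 was -1.12 before and -0.90 after the length and GC correction, against -1.02 and -0.67 for Gpx1. Others of the set moved either way. Selm went from -0.40 to -0.06 and Selo from -0.30 to 0.01. Selk went from -0.90 to -0.95, Sepp1 from -0.53 to -0.62, Sep15 from -0.35 to -0.46 and Selt from -0.28 to -0.33. The counts given for the set are without this correction.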
